A study of Homo sapiens with 12 samples.

Results

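Published HuR target mRNAs with roles in growth and survival were followed through an RNA immunoprecipitation experiment: HIF1A, VEGFA, EGFR, CTNNB1, CCND1, SIRT1, PTMA, MTA1, XIAP and ACTB. These 10 genes were taken by symbol from the 57773 Ensembl identifiers counted in each library. No measured value entered the rule, but the 10 were chosen with earlier results of these data known. All 10 were among the 22984 genes that passed the filter on low counts. The cells were HuH-7, an established human hepatoma line. One line stably overexpressed V5-tagged wild-type (WT) HuR, and the other stably expressed the SUMOylation mutant HuR(K120/182R), in which the lysines at residues 120 and 182 are replaced by arginine. From each line, RNA recovered with an antibody to the V5 tag (RIP) and total RNA of the cells (input) were sequenced, with 3 libraries in each of the 4 groups. Every count column also carries the word DMSO in its header, in all 4 groups alike, and the sample labels name no treatment. The labels do not say whether a line was a clone or a pool, whether the cells' own ELAVL1 gene was intact, or whether the 3 libraries of a group came from separate cultures. The p-values therefore measure the spread between libraries, which may be technical. No mock precipitate or untagged line was used here.

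HuR, encoded by ELAVL1, is an RNA-binding protein whose preferred sites are stretches rich in U or in A and U, mostly in the 3′ untranslated region (3′ UTR) of mRNAs. It is mainly known for slowing the decay of such mRNAs or for altering their translation. SUMOylation attaches a small ubiquitin-like protein to a lysine and can change how a protein binds its partners.

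The stretch of 30 bases richest in T was read from the 3′ UTR of the representative transcript of each gene, on the gene's strand, because U-rich RNA is what HuR is known to bind. Shown here are 5 of the genes whose recovery differed from input in at least 1 line. Capitals mark runs of 5 or more T and the pentamer ATTTA, the core of the classical AU-rich element. The sequences are genomic (hg19), so T stands for the U of the RNA.

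XIAP: aATTTAttttATTTATTTAattttcTTTTT
VEGFA: cTTTTTTaattttaatatttgttatcattt
CTNNB1: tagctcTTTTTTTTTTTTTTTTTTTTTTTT
HIF1A: gcTTTTTcttaatttcattccTTTTTTTgg
EGFR: ttctagctttcttcttcatattttaatttt

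The XIAP stretch lies at chrX:123042868-123042897, that of VEGFA at chr6:43754005-43754034, that of CTNNB1 at chr3:41281472-41281501 and that of HIF1A at chr14:62213804-62213833. The EGFR stretch lies at chr7:55275774-55275803, and all 5 are on the plus strand. XIAP alone of the 5 carried ATTTA in this stretch, and 2 of its copies overlapped. The EGFR stretch held 19 T but no run of 5, whereas 26 of the 30 bases were T in CTNNB1. A stretch with runs of T was thus present both in mRNAs found above input with WT HuR (XIAP, VEGFA) and in HIF1A, found below it.

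Gene counts summed to between 31774994 and 49612379 per precipitate and between 52052110 and 73149117 per input. Levels are given as CPM, the counts of a gene scaled to library size by edgeR's TMM method (trimmed mean of M values), and enrichment is the log2 fold change of precipitate over input, with its standard error (SE) after ±. It is therefore relative to the typical gene: the median over all 22984 genes was 0.06 in the WT line and 0.07 in the mutant line. In bulk RNA of this kind, fewer cells of a type and less RNA per cell cannot be told apart. Hepatocyte and hepatoma markers, all 8 detected, summed to between 10500 and 12500 CPM in the WT inputs and between 8240 and 9290 CPM in the mutant inputs, against at most 9.06 CPM for 6 immune markers and 2.38 CPM for the 5 of 6 stromal and endothelial markers that were found. COL1A1 and CDH5 were at 0 in the 3 mutant inputs. The test found no call for ELAVL1, counted without distinction between the added and the cells' own gene, in mutant against WT inputs (−0.27 ± 0.12, adjusted p = 0.14) or in precipitates (−0.34 ± 0.12, adjusted p = 0.0561).

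**Figure D1:**
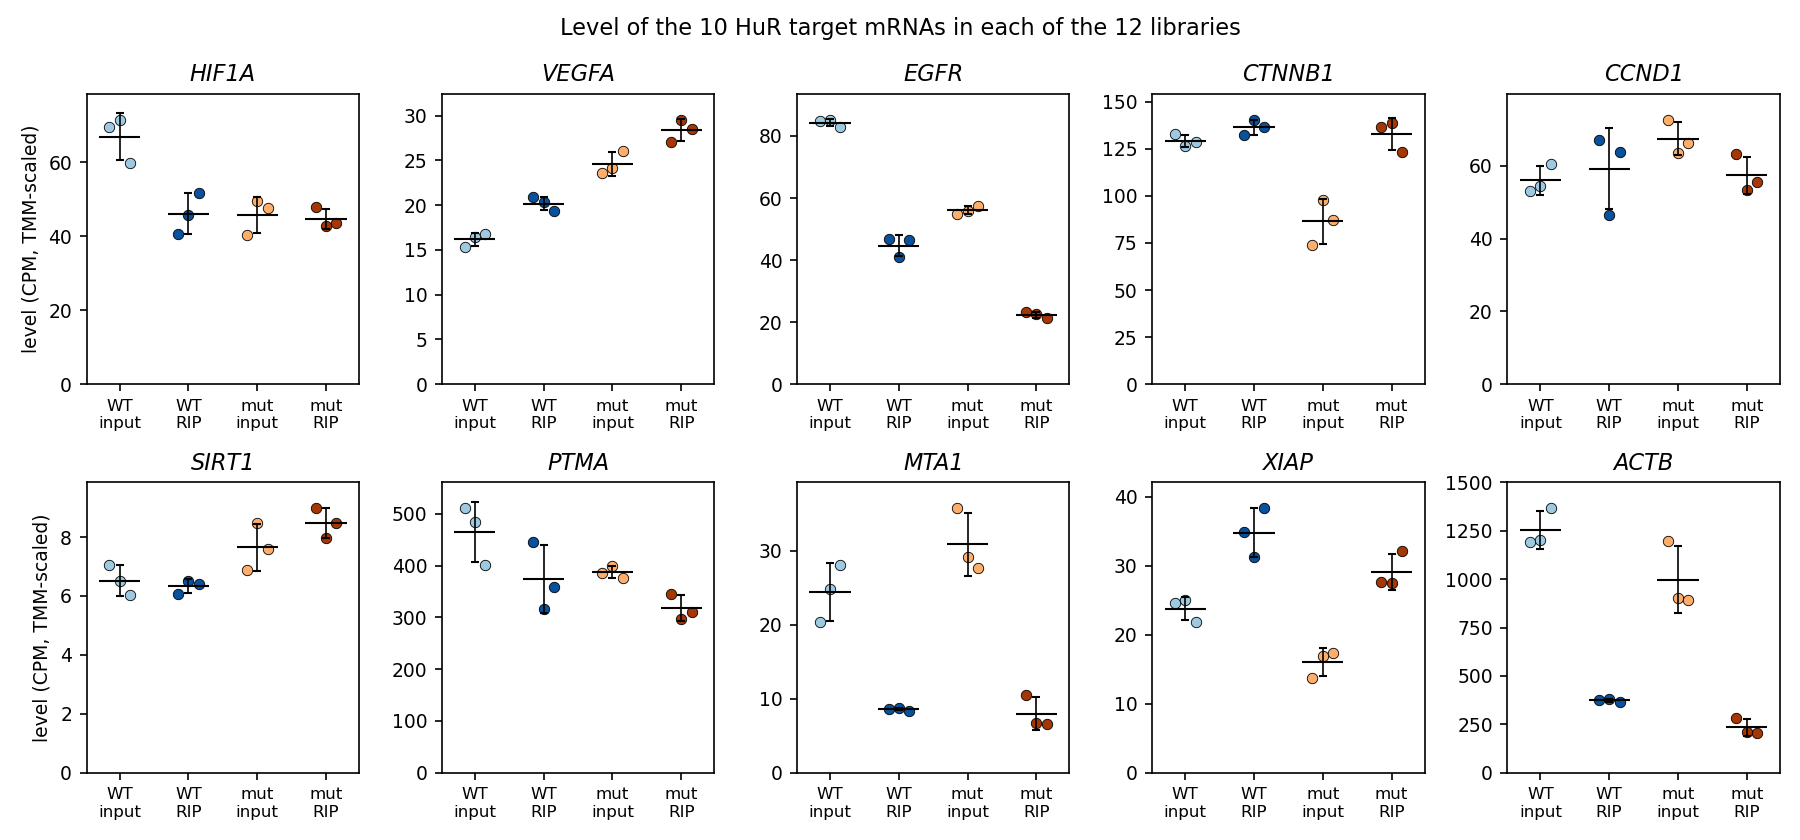
Level of each of the 10 mRNAs in every library, in TMM-scaled CPM on a linear axis from 0. Points are libraries, horizontal lines the mean and bars ± 1 SD (n = 3); "mut" is the HuR(K120/182R) line. ACTB and MTA1 lie far lower in both precipitates than in both inputs, XIAP lies higher in each precipitate than in its input, and CTNNB1 is low in the mutant input alone.

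The first comparison asked which of these mRNAs were recovered with WT HuR above their level in the same cells. XIAP and VEGFA were higher in the WT precipitate than in the WT input, and HIF1A, EGFR, MTA1 and ACTB were lower, of which HIF1A (0.52) and EGFR (0.15) changed sign when the libraries were scaled by their total counts. CTNNB1, CCND1, SIRT1 and PTMA did not pass the test. Thus 2 of 10 were higher and 4 lower (edgeR quasi-likelihood F-test, Benjamini-Hochberg adjusted p under 0.05), where 25.6% of all genes tested were higher and 25.4% lower, 50.9% in all. Among protein-coding genes alone, 22% were higher and 34% lower. The members' median was −0.18, beside −0.13 for all protein-coding genes.

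With mutant HuR, XIAP and CTNNB1 were higher in the precipitate than in the input, and EGFR, MTA1 and ACTB were lower, EGFR falling to −0.01 with total library size. The counts of 2 higher and 3 lower of 10 compare with 29% of all genes tested called higher and 28% lower, 57% in all, and with 26.6% and 36.1% of protein-coding genes. HIF1A, VEGFA, CCND1, SIRT1 and PTMA did not pass the test. The members' median was −0.13, against −0.11 for all protein-coding genes.

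The mutation's effect on recovery was tested as the difference of the enrichments, mutant minus WT, in the same fit. None of the 10 passed in edgeR after Benjamini-Hochberg adjustment, where 15 of all 22984 genes did (0.0653%). At an unadjusted p under 0.05, 3 of the 10 would pass, CTNNB1, HIF1A and EGFR, beside 13.1% of all genes tested and 16.1% of protein-coding genes. DESeq2 called 1 of the 10, CTNNB1 (0.54, adjusted p = 0.0261), and 389 genes in all. The 95% intervals left room for sizeable differences: that of CTNNB1 ran from 0.18 to 0.90 and that of MTA1 from −0.91 to 0.02.

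**Figure D2:**
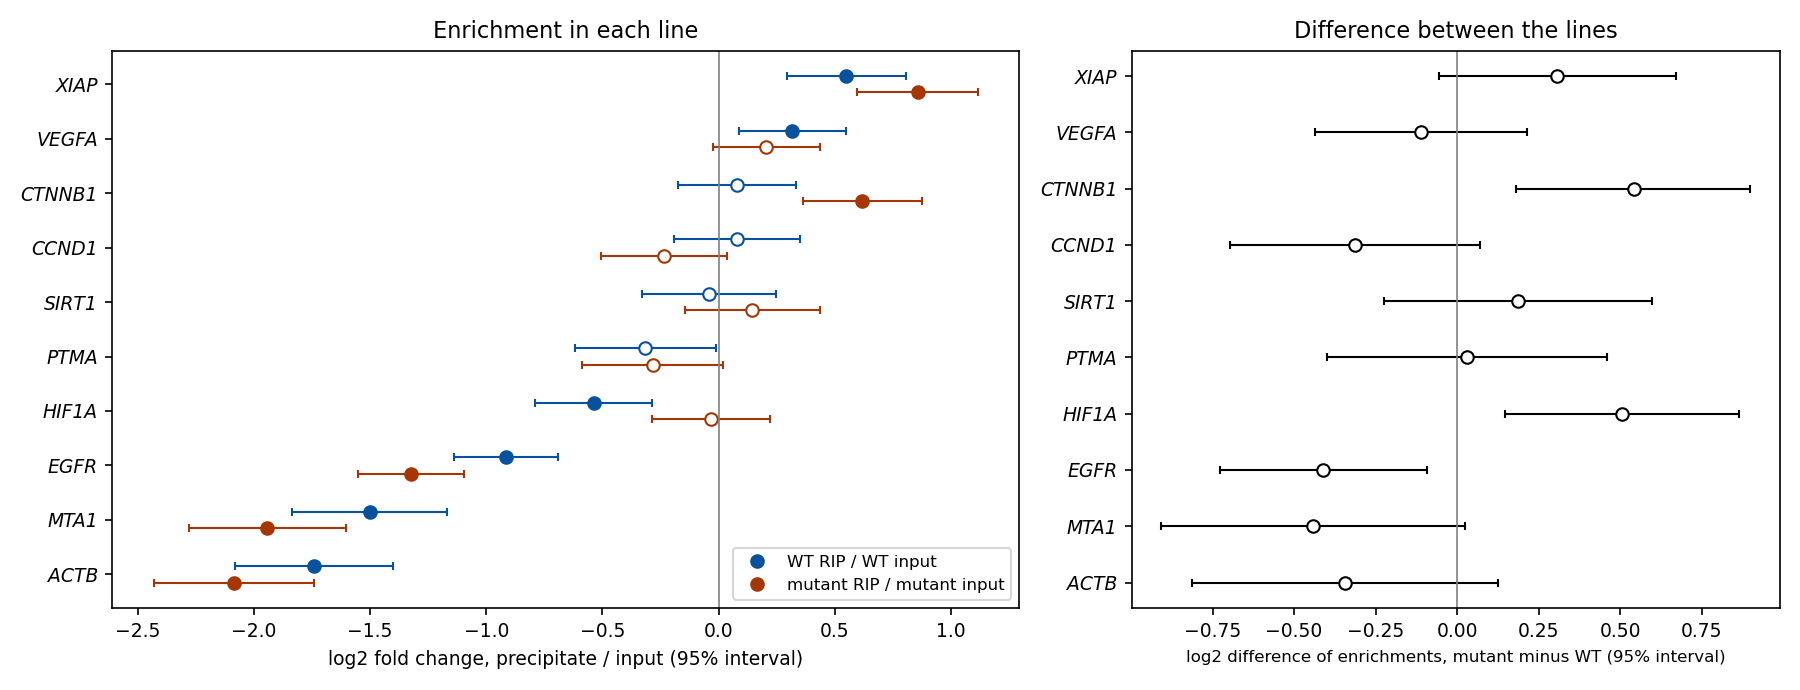
Left, log2 fold change of precipitate over input in the WT and the mutant line for each mRNA, with 95% intervals; filled points passed the test (adjusted p under 0.05) and open points did not. Right, the difference of these enrichments, mutant minus WT, with 95% intervals; none of the 10 passed. XIAP is highest (in the WT line VEGFA is, with the GC trend removed) and ACTB lowest in both lines; with total library size HIF1A and EGFR lie above 0 in the WT line.

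The precipitates were also compared directly. VEGFA and SIRT1 were higher with mutant HuR and EGFR and ACTB were lower, that is 4 of 10, where 19.6% of all genes tested were called (9.87% higher and 9.76% lower). Of protein-coding genes, 25% were called (11.6% higher and 13.4% lower). In the inputs, VEGFA was higher in the mutant line, and HIF1A, EGFR, CTNNB1 and XIAP were lower. These 5 of 10 compare with 17.5% of all genes tested, 7.47% called higher and 10% lower. Among protein-coding genes alone, 23.1% were called, 8.91% higher and 14.2% lower. Of the 10, then, 5 differed in cellular level between the lines, so a difference between precipitates cannot be read without the inputs. The comparisons share libraries, and their values are given side by side for that reason.

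**Figure D3:**
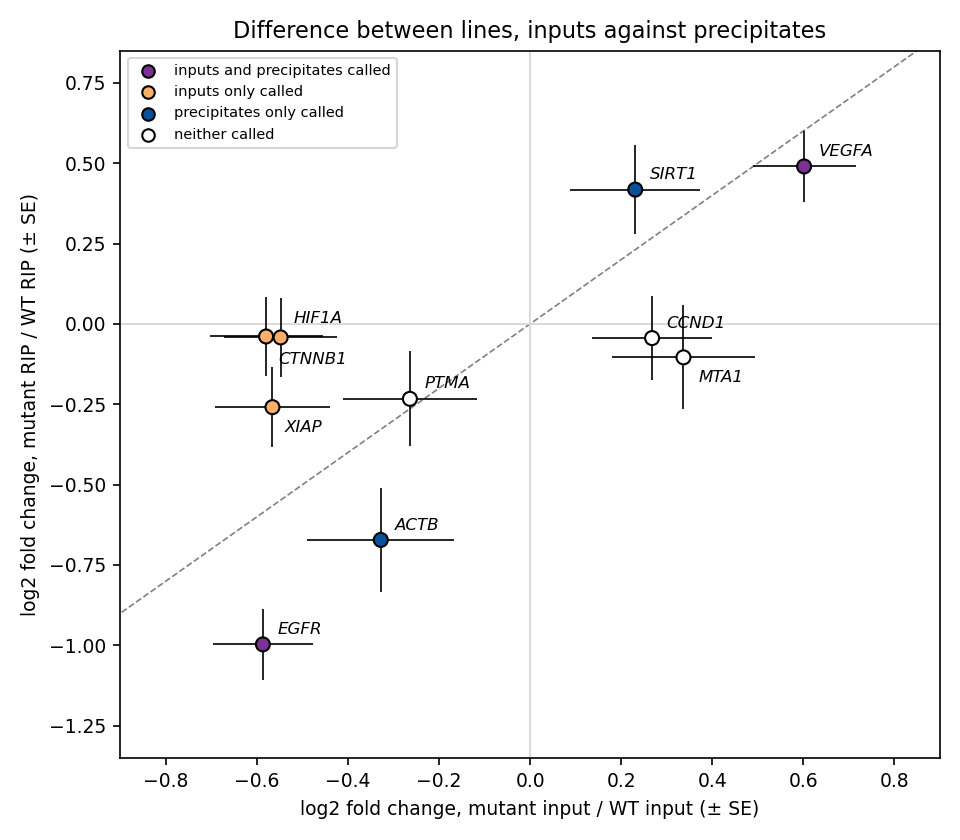
Difference between the lines in inputs (horizontal axis) and in precipitates (vertical axis), as log2 fold change of mutant over WT with SE, for each mRNA. On the dashed line both differences are equal; VEGFA and PTMA lie near it, HIF1A, CTNNB1, XIAP and SIRT1 lie above it, and EGFR, MTA1, CCND1 and ACTB lie below it. Colours show which of the 2 tests was passed; in inputs CCND1, SIRT1 and MTA1 move below 0 with total library size.

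HIF1A encodes the oxygen-regulated subunit of hypoxia-inducible factor 1 (ENSG00000100644, chromosome 14, 62162231 to 62214977, plus strand, hg19). Its level was 69.7, 71.5 and 59.8 CPM in the WT inputs and 40.7, 45.9 and 51.7 CPM in the WT precipitates. In the mutant line it was 40.3, 49.5 and 47.7 CPM in inputs and 47.8, 42.8 and 43.7 CPM in precipitates. The WT inputs were all above the other 9 libraries, which overlapped one another. HIF1A was lower in the WT precipitate than in its input by log2 −0.54 ± 0.12 (adjusted p = 0.000702) and did not differ in the mutant line (−0.03 ± 0.12, adjusted p = 0.84). The difference of the enrichments was 0.51 (95% interval 0.15 to 0.87, unadjusted p = 0.00762, adjusted p = 0.194). With the trend with transcript GC content removed it was 0.305 (adjusted p = 0.336). The inputs differed by −0.55 ± 0.12 (adjusted p = 0.00298) and the precipitates by −0.04 ± 0.12 (adjusted p = 0.859). The 2 differences between lines themselves differed by the 0.51 above, which did not pass. A long noncoding gene on the same strand shares 2.87% of the exon bases of HIF1A. It held 3380 counts over the 12 libraries beside 31203 for HIF1A.

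VEGFA, the angiogenic growth factor whose gene HIF-1 switches on (ENSG00000112715, chromosome 6, 43737921 to 43754224, plus strand), behaved differently. It stood at 15.4, 16.5 and 16.7 CPM in the WT inputs and at 20.9, 20.3 and 19.4 CPM in the WT precipitates. The mutant line had 23.5, 24.2 and 26.1 CPM in inputs and 27.1, 29.5 and 28.5 CPM in precipitates. No 2 of the 4 groups overlapped, and both mutant groups lay above both WT groups. VEGFA was higher in the WT precipitate than in its input by 0.32 ± 0.11 (adjusted p = 0.0203). That call was lost without WT RIP 1 (0.29, adjusted p = 0.058), without WT input 1 (0.32, adjusted p = 0.0583) and with no filter on low counts (adjusted p = 0.0596). In the mutant line the enrichment was 0.21 ± 0.11 (adjusted p = 0.119), which passed in 6 of 17 alternatives, among them the DESeq2 test (0.23, adjusted p = 0.0495), TMM from coding genes (0.34, adjusted p = 0.0107) and the GC trend removed (0.26, adjusted p = 0.0264). The difference of the enrichments, −0.11, had an interval of −0.44 to 0.21. Between the lines VEGFA was higher in mutant inputs by 0.60 ± 0.11 (adjusted p = 0.000555) and in mutant precipitates by 0.49 ± 0.11 (adjusted p = 0.00261). Both calls were lost with total library size (0.17, adjusted p = 0.557, and 0.30, adjusted p = 0.355).

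EGFR encodes the receptor of epidermal growth factor (ENSG00000146648, chromosome 7, 55086710 to 55279321, plus strand). The WT inputs held 84.8, 85.2 and 83.0 CPM and the WT precipitates 46.8, 40.9 and 46.4 CPM. Mutant inputs held 54.9, 55.9 and 57.6 CPM and mutant precipitates 23.2, 22.6 and 21.3 CPM. The 4 groups were fully separate, and the mutant precipitates were the lowest. EGFR was below input by −0.92 ± 0.11 with WT HuR (adjusted p = 1.34e-07) and by −1.32 ± 0.11 with mutant HuR (adjusted p = 2.16e-10). The difference of the enrichments was −0.41 (interval −0.73 to −0.09; unadjusted p = 0.0134, adjusted p = 0.231). Between the lines EGFR was lower in mutant inputs by −0.59 ± 0.11 (adjusted p = 0.000495) and in mutant precipitates by −0.997 ± 0.11 (adjusted p = 7.91e-07), the largest difference between precipitates among the 10. Each of these differences between lines passed the test in all 16 alternatives tried.

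CTNNB1 encodes beta-catenin, the transcriptional coactivator of the Wnt pathway and a component of cell junctions (ENSG00000168036, chromosome 3, 41236232 to 41301587, plus strand). It stood at 132.6, 126.5 and 128.4 CPM in the WT inputs and at 132.3, 140.3 and 136.5 CPM in the WT precipitates. In the mutant line it stood at 73.9, 97.9 and 87.4 CPM in inputs and at 136.5, 138.5 and 123.1 CPM in precipitates. The mutant inputs were below the other 9 libraries, and the 2 sets of precipitates overlapped. CTNNB1 did not differ from input with WT HuR (0.08 ± 0.12, adjusted p = 0.619) and was higher than input with mutant HuR by 0.62 ± 0.12 (adjusted p = 0.000128). The difference of the enrichments was 0.54 (unadjusted p = 0.00471, adjusted p = 0.175), the largest increase among the 10. The inputs differed by −0.58 ± 0.12 (adjusted p = 0.00184) and the precipitates by −0.04 ± 0.12 (adjusted p = 0.87). With the trend with transcript GC content removed, the mutant enrichment of CTNNB1 was 0.24 (adjusted p = 0.0468) and the WT one −0.22.

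CCND1 encodes cyclin D1, which drives entry into the cell cycle and is a Wnt target (ENSG00000110092, chromosome 11, 69455924 to 69469242, plus strand). It stood at 53.2, 54.4 and 60.5 CPM in WT inputs, 67.2, 46.5 and 63.8 CPM in WT precipitates, 72.6, 63.6 and 66.3 CPM in mutant inputs and 63.1, 53.4 and 55.6 CPM in mutant precipitates. WT inputs and precipitates overlapped, whereas the mutant precipitates lay just under the mutant inputs. None of its comparisons passed the test: the enrichments were 0.08 ± 0.13 (adjusted p = 0.641) and −0.23 ± 0.13 (adjusted p = 0.134), and their difference was −0.31 (interval −0.70 to 0.07). Of its exon bases, 10.4% are shared with LTO1 on the opposite strand, and whether the counting used strand is not given in the sources used here, so its level is uncertain to that extent.

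XIAP encodes an inhibitor of caspases, the proteases of apoptosis (ENSG00000101966, chromosome X, 122993562 to 123047822, plus strand), and was the member highest over input in both lines, except that with the GC trend removed VEGFA was higher in the WT line (0.30). Its level was 24.6, 25.0 and 21.8 CPM in the WT inputs and 34.8, 31.2 and 38.3 CPM in the WT precipitates. The mutant inputs held 13.8, 16.9 and 17.4 CPM and the mutant precipitates 27.7, 27.5 and 32.1 CPM. Precipitates lay above inputs without overlap in both lines, and the 2 sets of precipitates overlapped. The enrichment was 0.55 ± 0.12 with WT HuR (adjusted p = 0.000638) and 0.86 ± 0.13 with mutant HuR (adjusted p = 2.41e-06), folds of 1.46 and 1.81. Their difference was 0.31 (interval −0.06 to 0.67, adjusted p = 0.481), and 0.096 with the GC trend removed (adjusted p = 0.818). In the inputs XIAP was lower in the mutant line by −0.57 ± 0.13 (adjusted p = 0.0028), and the precipitates differed by −0.26 ± 0.12 (adjusted p = 0.151). XIAP has the lowest GC content of the 10 transcripts (38.9%), and with the GC trend removed the WT enrichment no longer passed the test (0.19, adjusted p = 0.0827) while the mutant one did (0.29, adjusted p = 0.0105).

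PTMA encodes prothymosin alpha, a small acidic nuclear protein linked to proliferation and survival (ENSG00000187514, chromosome 2, 232571605 to 232578261, plus strand). It stood at 510.4, 484.9 and 400.5 CPM in the WT inputs, at 446, 316 and 359.5 CPM in the WT precipitates, at 386, 399 and 377 CPM in the mutant inputs and at 346, 297 and 311 CPM in the mutant precipitates. The WT groups overlapped and the mutant groups did not. The enrichments were −0.32 ± 0.15 (adjusted p = 0.0783) and −0.28 ± 0.15 (adjusted p = 0.105), and their difference of 0.03 had an interval of −0.40 to 0.46. Without WT RIP 1 or WT input 3 the WT value passed the test (−0.46, adjusted p = 0.0138, and −0.41, adjusted p = 0.0421). Counts of 11 pseudogenes of PTMA in the annotation came to 1.18% of those of PTMA, and how reads with several places were counted is not given in the sources used here.

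SIRT1 encodes a nuclear deacetylase that depends on NAD (ENSG00000096717, chromosome 10, 69644414 to 69678147, plus strand). Its level was 7.06, 6.49 and 6.02 CPM in WT inputs, 6.08, 6.51 and 6.42 CPM in WT precipitates, 6.88, 8.47 and 7.61 CPM in mutant inputs and 8.97, 7.96 and 8.48 CPM in mutant precipitates. Precipitates and inputs overlapped in both lines, and the mutant precipitates were all above the WT precipitates. SIRT1 was not enriched past the threshold in either line (−0.04 ± 0.14, adjusted p = 0.828, and 0.15 ± 0.14, adjusted p = 0.392). The precipitates differed by 0.42 ± 0.14 (adjusted p = 0.0342), but leaving out any 1 of the 6 RIP libraries ended that call (adjusted p from 0.058 to 0.115), as did testing with no filter (adjusted p = 0.117) and total library size (0.24, adjusted p = 0.528). The inputs differed by 0.23 ± 0.14 (adjusted p = 0.29).

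MTA1, a subunit of the nucleosome remodelling and deacetylase complex NuRD (ENSG00000182979, chromosome 14, 105886157 to 105937066, plus strand), was recovered far below its input level. It held 20.3, 24.8 and 28.0 CPM in the WT inputs and 8.66, 8.77 and 8.40 CPM in the WT precipitates. In the mutant line it held 35.7, 29.2 and 27.6 CPM in inputs and 10.6, 6.75 and 6.62 CPM in precipitates, mutant RIP 1 being the highest precipitate. The enrichment was −1.501 ± 0.16 (adjusted p = 3.57e-08) with WT HuR and −1.94 ± 0.16 (adjusted p = 3.68e-10) with mutant HuR, and the difference of −0.44 did not pass (adjusted p = 0.414). MTA1 has the highest GC content of the 10 (61.6%), and with the GC trend removed the values were −0.82 and −1.08. TEX22 shares 3.76% of its exon bases on the same strand.

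ACTB encodes cytoplasmic beta-actin (ENSG00000075624, chromosome 7, 5566040 to 5603533, minus strand). It was counted at 1191, 1201 and 1365 CPM in the WT inputs and at 375, 381 and 366 CPM in the WT precipitates. Mutant inputs held 1198, 902 and 892 CPM and mutant precipitates 285, 212 and 207 CPM, with mutant input 1 and mutant RIP 1 the highest of their groups. Precipitates and inputs were far apart, and the mutant precipitates were all below the WT ones. ACTB was the lowest member in both lines, at −1.74 ± 0.17 (adjusted p = 3.49e-09) and −2.09 ± 0.17 (adjusted p = 1.02e-10), and their difference was −0.34 (interval −0.81 to 0.13). Precipitates differed between the lines by −0.67 ± 0.16 (adjusted p = 0.00424) and inputs by −0.33 ± 0.16 (adjusted p = 0.169). Its pseudogenes and the POTE genes that carry actin sequence, 26 entries of the annotation, held 0.434% as many counts. The annotated microRNA gene AC006483.1 shares 1.88% of the exon bases of ACTB on the same strand. It held 48599 counts over the 12 libraries beside 392627 for ACTB, so the level of ACTB is uncertain to that extent.

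Levels of different genes can be set side by side only per length of exon. In CPM per kilobase of all annotated exon bases, ACTB led the WT inputs at 284 ± 22.3 (SD, n = 3) ahead of PTMA at 138 ± 17.0, and HIF1A (13.0 ± 1.22), CCND1 (11.8 ± 0.824) and CTNNB1 (10.98 ± 0.264) followed, each overlapping its neighbour by 1 SD. EGFR, MTA1, XIAP, SIRT1 and VEGFA came next, from 5.29 down to 1.12 without such overlap. In the precipitates the order at the top was turned round: PTMA stood at 111 ± 19.6 and ACTB at 84.9 ± 1.78 with WT HuR, and PTMA at 94.1 ± 7.43 and ACTB at 53.3 ± 9.92 with mutant HuR. MTA1 fell from the seventh place in the WT inputs to the last in the WT precipitates (1.24 ± 0.0276). The order depends on the length used, and per kilobase of the longest coding transcript CTNNB1 came next after ACTB and PTMA in the WT inputs (27.3 ± 0.655). By that length VEGFA (4.49) lay above XIAP (2.77) and SIRT1 (1.59) in the WT inputs. In the WT precipitates SIRT1 (1.54) and not MTA1 (2.98) was then last.

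The 3′ UTRs of the 10 differ in motifs. These are not independent of the choice of genes, since the 10 are published targets of HuR, which prefers such sites. ATTTA and runs of 7 or more T were searched on the sense strand only, with overlapping ATTTA counted separately. XIAP held 20 ATTTA in 6791 bases, VEGFA 10 in 1925, EGFR 9 in 6011, SIRT1 9 in 1797, HIF1A 8 in 1173 and CCND1 7 in 3192. CTNNB1, PTMA and ACTB held 1 each and MTA1 none. The counts are of 1 transcript per gene, and those of CTNNB1 change with the transcript taken. Against 3′ UTRs of similar length (80% to 125% of its own), at least as many ATTTA as in HIF1A were found in 4.27%, as in VEGFA in 7.6% and as in SIRT1 in 9.65%, but as in XIAP in 33.6% and as in EGFR in 73.8%. Of all 13864 genes with a 3′ UTR, 71.3% held at least 1 ATTTA and 49.5% a run of 7 T. PTMA held 3 such runs in 700 bases, matched or exceeded by 1.91% of 3′ UTRs of its length, and HIF1A held 4 (2.79%). Neither was called above input with TMM scaling. Both were, in both lines, with total library size, where 68.6% of all genes tested were higher in the WT line and 73.1% in the mutant line. With the GC trend removed both were called below input, HIF1A at −0.885 (WT) and −0.58 (mutant) and PTMA at −0.58 and −0.618.

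Over all coding genes the enrichment rose with the number of ATTTA. The median was −0.43 in the WT line and −0.49 in the mutant line for genes with none, and 0.09 and 0.21 for genes with 10 or more. The median 3′ UTR length rose along with it, from 352 to 4450 bases, and the part of length or GC content in this was not tested. By GC content of the transcript, coding genes in the lowest of 3 equal groups (under 43.7%) had medians of 0.18 in the WT line and 0.38 in the mutant line, and those in the highest (over 53.9%) −0.67 and −0.83. The difference of the enrichments, mutant minus WT, had a median of 0.198 in the lowest group and −0.175 in the highest. Mutant against WT inputs had medians of −0.205 and 0.136. XIAP, HIF1A and SIRT1 fall in the lowest group and MTA1 and ACTB in the highest. Within the lowest group the members ranged from −0.54 (HIF1A) to 0.55 (XIAP) in the WT line. These relations are across genes, which are not independent replicates, and a motif match is not a binding site.

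**Figure D4:**
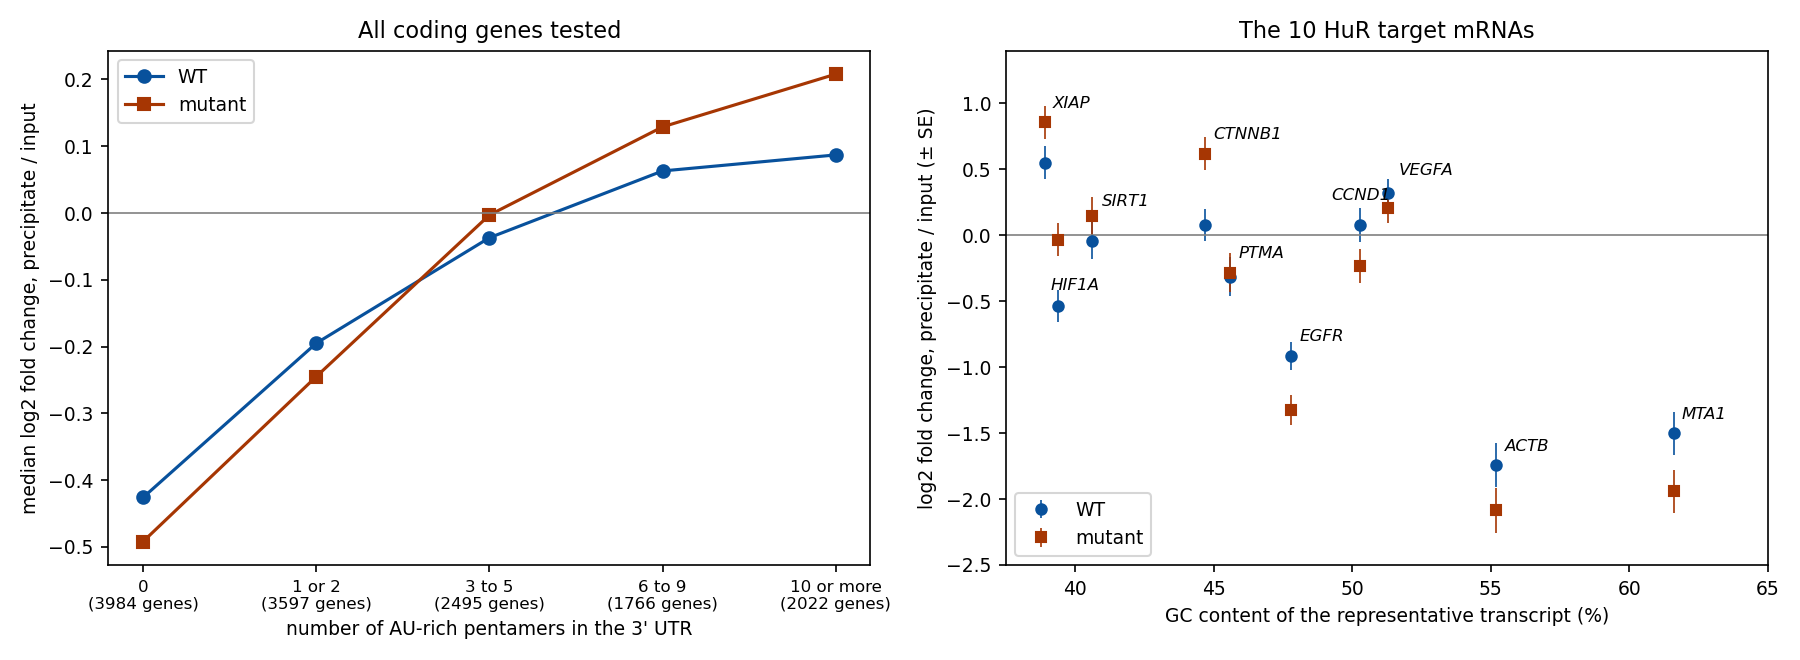
Left, median log2 fold change of precipitate over input for coding genes grouped by the number of ATTTA pentamers in the 3′ UTR, in the WT and mutant lines. Right, log2 fold change with SE of the 10 mRNAs against the GC content of the representative transcript. The median rises from −0.43 to 0.09 in the WT line; MTA1 and ACTB, with the most GC, are lowest, and XIAP, with the least, is highest (in the WT line VEGFA is, with the GC trend removed); with total library size HIF1A and EGFR lie above 0 in the WT line.

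The scale against which recovery is judged mattered for the members. With total library size in place of TMM, the median of all genes moved to 1.12 in the WT enrichment, 1.38 in the mutant enrichment, 0.25 in their difference, −0.17 between precipitates and −0.43 between inputs. On that scale 7 of the 10 were called higher and 1 lower in the WT line, and 7 higher and 2 lower in the mutant line. Of all genes tested, 68.6% were then higher and 3.82% lower in the WT line and 73.1% and 4.01% in the mutant line, so the count of members higher lay near the share of all genes. MTA1 (−0.43, adjusted p = 0.0571, and −0.62) and ACTB (−0.69 and −0.77) were below input on every scale tried, in both lines. With the GC trend removed, 1 member was higher and 6 lower in the WT line, SIRT1 (−0.37) and PTMA (−0.58) now being among the lower, where 24% of all genes tested were higher and 27.7% lower. The same setting in the mutant line gave 3 higher and 6 lower, with HIF1A at −0.58, where 26.4% and 29.3% of all genes were. In the inputs, the lower levels of HIF1A, EGFR, CTNNB1 and XIAP in the mutant line passed the test in all 16 alternatives, and values ranged from −0.98 to −0.38 for HIF1A and from −1.002 to −0.39 for XIAP.

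**Figure D5:**
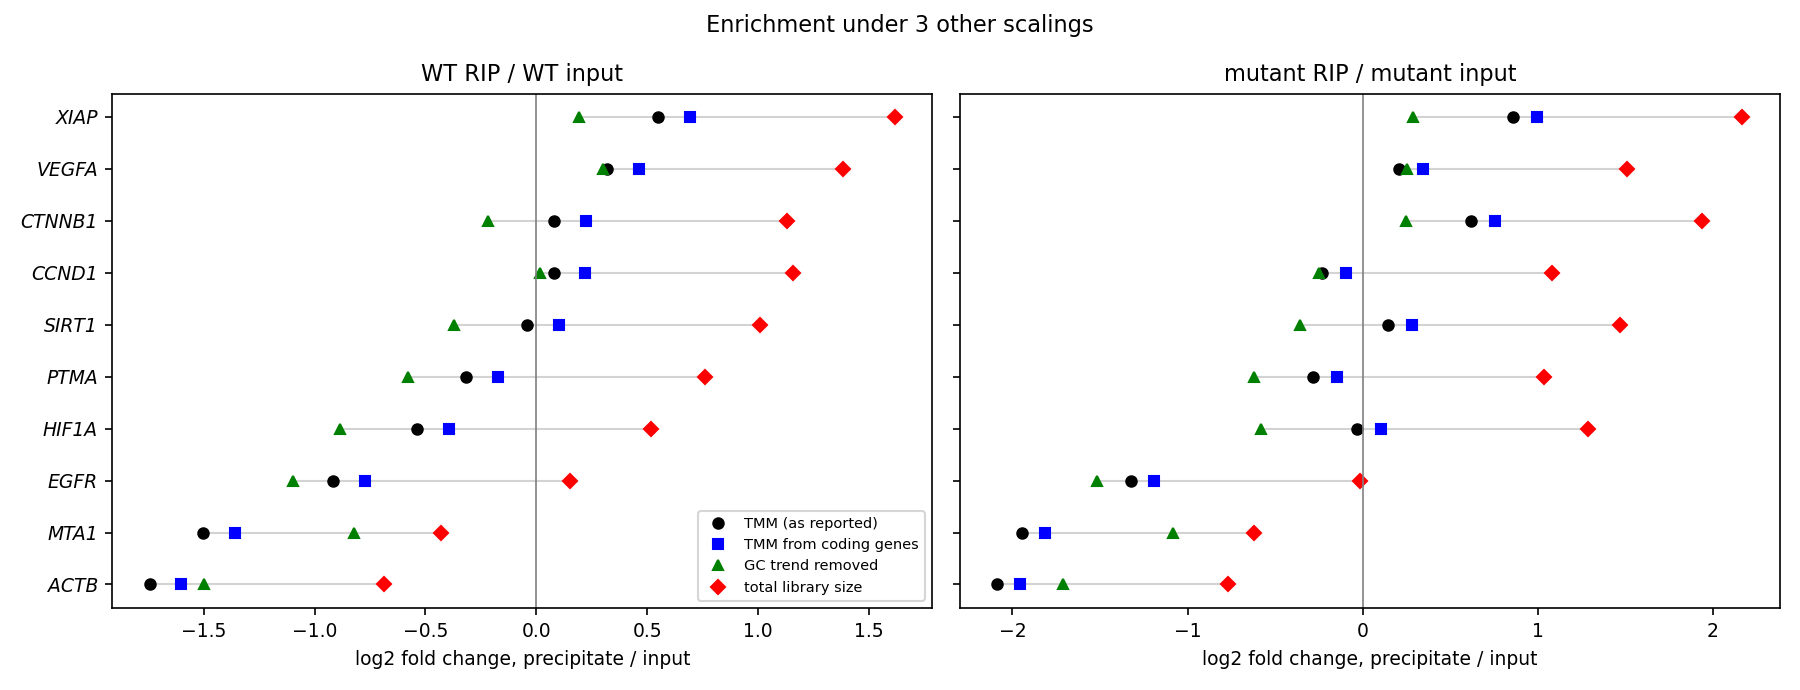
Log2 fold change of precipitate over input for each mRNA in the WT line (left) and the mutant line (right) with TMM and under 3 other scalings. Total library size moves all 10 upward; only MTA1 and ACTB stay below 0 in both lines under every scaling shown, and only XIAP and VEGFA stay above it.

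Other genes of the same pathways, from lists that do not overlap the 10, were counted in the same way. Of 30 other published HuR targets tested, 3 were higher and 11 lower with WT HuR (median −0.12) and 9 higher and 10 lower with mutant HuR. The list includes ELAVL1, whose counts do not separate the added from the cells' own gene. It was among the lower in both lines (−0.757 ± 0.124 with WT HuR and −0.826 ± 0.125 with mutant HuR). Of protein-coding genes, 22% were higher and 34% lower with WT HuR, and 26.6% and 36.1% with mutant HuR. TGFB1, a secreted growth factor, stood at −2.03 ± 0.17 and −2.62 ± 0.18, and IGF1R, a growth factor receptor, at −1.06 ± 0.13 and −1.29 ± 0.13. Total library size ended both IGF1R calls (−0.018, adjusted p = 0.94, and 0.014, adjusted p = 0.953). TGFB1 shares 6.59% of its exon bases with HNRNPUL1 on the opposite strand. In the difference of the enrichments 0 of these 30 passed in edgeR, against 8 at an unadjusted p under 0.05 and 2 in DESeq2. The shares of all genes tested were 0.0653%, 13.1% and 1.69%, and 16.1% of protein-coding genes had an unadjusted p under 0.05.

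The counts that follow stand beside 22% of coding genes higher and 34% lower with WT HuR, and 26.6% and 36.1% with mutant HuR. Around VEGFA, 7 of 11 genes of hypoxia sensing and VEGF signalling were lower in each line, among them NRP1, a VEGF co-receptor, at −0.87 ± 0.13 with WT HuR (0.19 with total library size). Around EGFR, 5 of 10 tested genes of its family, ligands and adaptors were lower with WT HuR and 2 higher, and ERBB2, its partner receptor, stood at −1.18 ± 0.13 and −1.25 ± 0.13, calls that total library size ended (−0.143, adjusted p = 0.527, and 0.056, adjusted p = 0.806). Among 13 partners of beta-catenin, 3 were higher and 5 lower with WT HuR, and the paired Wnt co-receptors lay at opposite ends, LRP6 at 1.21 ± 0.12 and LRP5 at −1.80 ± 0.15. Around CCND1, 3 of 12 were higher and 4 lower, RBL1, a relative of RB, at 0.99 ± 0.14. Around SIRT1 and MTA1, 3 of 18 were higher and 12 lower, with SIRT5 at 1.27 ± 0.13 and the NuRD subunit MTA2 at −1.12 ± 0.13 (−0.079, adjusted p = 0.73, with total library size). Around XIAP, 1 of 13 was higher and 4 lower, and the giant inhibitor of apoptosis BIRC6 stood at 1.69 ± 0.14 with WT HuR and 2.04 ± 0.14 with mutant HuR. A last list held actins, actin regulators and parathymosin (PTMS), and of its 8 genes tested 7 were lower and 1 higher with WT HuR. Profilin (PFN1) stood at −1.57 ± 0.17 and thymosin beta 4 (TMSB4X) at 1.64 ± 0.19. SIRT5, PFN1 and ERBB2 share 9.37%, 6.94% and 5.53% of their exon bases with a gene on the opposite strand.

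Between the lines, the lists held a few large differences. Of the 30 other HuR targets, 6 were higher and 4 lower in mutant precipitates. Of all genes tested 9.87% were higher and 9.76% lower there, and of protein-coding genes 11.6% and 13.4%. In mutant inputs 5 of the 30 were higher and 5 lower, beside 7.47% and 10% of all genes and 8.91% and 14.2% of protein-coding genes. CDKN1A, the cyclin-dependent kinase inhibitor p21, was higher in mutant inputs by 1.31 ± 0.15 (adjusted p = 2.06e-06) and in mutant precipitates by 0.61 ± 0.15 (adjusted p = 0.00517), the latter call being lost with total library size. MYC was higher by 0.84 ± 0.12 in inputs and 0.52 ± 0.12 in precipitates, and total library size ended both calls. EGF, a ligand of EGFR, was at 0.208 ± 0.0485 CPM (SD, n = 3) in WT inputs and 1.02 ± 0.206 CPM in mutant inputs, a log2 difference of 2.26 ± 0.34 (adjusted p = 4.96e-05) opposite in sign to that of EGFR. CDKN2C, an inhibitor of the cyclin D kinases, was lower in mutant precipitates by −1.44 ± 0.17 (adjusted p = 1.95e-06). It was also lower in mutant inputs, by −0.74 ± 0.17 (adjusted p = 0.00324), a call that held in 15 of 16 alternatives (adjusted p up to 0.0534 leaving out 1 library).

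The gene whose level over the 12 libraries was most like that of each member was sought among 9649 protein-coding genes or, for CCND1, 9648. TMEM184B was closest to MTA1 and ITM2C to ACTB (Pearson r = 0.997 each), CREB3L2 to EGFR (0.995) and TRIM59 to XIAP (0.991). VEGFA was closest to TSPAN8 (0.977), HIF1A to NCBP1 (0.973), PTMA to PELI1 (0.971), CTNNB1 to RBM4B (0.964) and SIRT1 to LETMD1 (0.94), while CCND1 had no closer match than TAF4 (0.881). The 12 points fall into 4 groups and share library and depth, so these values describe likeness of pattern only.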

How the data were processed

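Gene-level RNA-seq counts of 12 libraries were used, 3 in each of the 4 groups. The authors deposited raw counts per Ensembl gene, 1 column per library and not pooled. Per the submitters' processing notes, bcl2fastq 2.20.0.422, cutadapt, STAR 2.4.0j, featureCounts 1.6.4 and the build hg19 were used. Per the labels' protocols, libraries were stranded total RNA libraries, from 16 to 77 ng of RNA for precipitates and 250 ng for inputs. The annotation release, strand setting and treatment of multi-mapping reads are not given in the sources used here.

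Of 57773 identifiers, 55538 matched GENCODE release 44 placed on GRCh37, the source of symbols, positions and 3′ UTRs. Genes passing filterByExpr (minimum count 10, minimum total 15) entered 1 robust quasi-likelihood fit of all 12 libraries in edgeR 4.0.16 (R 4.3.3), with TMM factors of 1.32 to 1.78 in precipitates and 0.526 to 0.909 in inputs, 8 residual degrees of freedom and a common biological coefficient of variation of 0.157. P-values were adjusted over all 22984 genes by the Benjamini-Hochberg method and called under 0.05, with no fold limit. The SE was derived from the F statistic. Replicate pairs differed by more than sampling noise (chi-square per degree of freedom 15.0 to 229).

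The 10 members, the 8 lists of related genes and the tests were chosen with earlier results of these data known. Named beside the members were ELAVL1, up to 4 genes per list and comparison with the smallest adjusted p among those called, and the gene with the highest Pearson r to each member among genes with a mean log2 CPM of at least 2. The text names fewer than this allows, and some sequences are not reported here. Alternatives were DESeq2 1.42.0 size factors and test, total library size, TMM from coding genes, no filter, a filter of 50 counts in at least 3 libraries, a fit of the compared groups alone, the replicate number as a block (also within line), removal of the GC trend, and leaving out each library.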

Additional observations from a re-analysis of the deposited data

How the results depend on the processing

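Of the 50 member values, DESeq2 size factors, fitting only the groups compared (40 values) and the replicate block changed neither a sign nor a call. No label says what a replicate number marks. Correlations of deviations ran from −0.521 to 0.612 over 18 same-numbered pairs, 8 of them over 0.1, and 14 of 36 were best with their own number. Between the WT and mutant precipitates they were 0.357 for number 1, 0.612 for number 2 and 0.044 for number 3. Whether libraries of the same number share a batch is not known. With the replicate block, 6, 5, 0, 4 and 5 members were called in the 5 comparisons, as without it, beside 50.3%, 56.4%, 0.1%, 19.9% and 17% of all genes. The block within line called 105 genes in the difference of the enrichments, where 15 passed without it.

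Members called higher with WT HuR numbered 2, but 7 with total library size (68.6% of all genes). They numbered 1 with no filter, and 1 with the GC trend removed, with and without the replicate block (24% of all genes without it). Leaving out 1 library gave 1 to 2. Those called lower numbered 1 with total library size (3.82% of all genes). With mutant HuR 9 were called with total library size (7 higher, where 77.1% of all genes were called). The GC trend removed gave 9 (6 lower, 55.8% of all genes) and 10 with the block as well (7 lower, 56.2%). With the DESeq2 test, TMM from coding genes and the stricter filter 6 instead of 5 were called, VEGFA being added. Of all genes, 58% were called with the DESeq2 test and 57.4% with TMM from coding genes. In the difference of the enrichments DESeq2 called 1 member, higher, and 389 genes in all, total library size 105, the GC trend removed 61 and that with the block 224. Between precipitates 2 members were called with total library size, 0 of them higher, where 14.4% of all genes were called and 3.38% were higher. In that comparison 1 member was higher with no filter, and 1 leaving out each of the libraries, which ended the SIRT1 call. Between inputs 0 were higher and 6 lower with total library size, where 1.68% of all genes were higher and 29.7% lower. With the GC trend removed 2 were higher, with and without the block. Without the block 5 were then lower, where 8.4% of all genes were higher and 10.6% lower.

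Signs turned as follows; HIF1A and EGFR with WT HuR and the list genes named here had passed the test, and the other values had not. With total library size the WT enrichment became 0.52 for HIF1A, 0.15 for EGFR, 1.01 for SIRT1, 0.76 for PTMA and 0.19 for NRP1, and the mutant one 1.29 for HIF1A, 1.08 for CCND1, 1.03 for PTMA, 0.014 for IGF1R, 0.19 for NRP1, 0.056 for ERBB2 and 0.02 for MTA2. The difference for VEGFA became 0.13, and inputs differed by −0.16 for CCND1, −0.22 for SIRT1 and −0.079 for MTA1. With the GC trend removed CTNNB1 with WT HuR stood at −0.22, SIRT1 with mutant HuR at −0.36 and the PTMA difference at −0.038, and with the replicate block as well at −0.22, −0.36 and −0.034, and CCND1 with WT HuR at −0.001. TMM from coding genes gave 0.10 for SIRT1 with WT HuR and 0.10 for HIF1A with mutant HuR, and the stricter low-count filter 0.023 and 0.039. Leaving out 1 library gave WT enrichments from −0.023 to 0.226 for CCND1 and −0.10 to 0.055 for SIRT1, mutant ones from −0.122 to 0.003 for HIF1A, PTMA differences from −0.096 to 0.176, and precipitate differences from −0.126 to 0.05 for HIF1A, −0.069 to 0.014 for CTNNB1, −0.194 to 0.055 for CCND1 and −0.367 to 0.012 for MTA1. The causes were not tested. With 3 libraries a group, the narrowest 95% interval of a difference of enrichments among the members, that of EGFR, ran from −0.73 to −0.09.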
